A study of Arabidopsis thaliana with 26 samples.

Results

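Ribosomal protein genes encode the structural proteins of the cytosolic ribosome, and 60 of them, on chromosomes 3, 4 and 5 of Arabidopsis thaliana, were followed here across sorted root cells and whole meristems. They were chosen by locus code, not by their values, from the 40S and 60S subunits. Of the 60, 57 had a probe set among the 16384 probe sets of 16255 loci: 28 of the 30 genes of the 40S subunit and 29 of the 30 of the 60S subunit. AT3G11940 (RPS5A), AT3G53870 and AT4G36130 were not analysed here. The 57 belong to 34 protein families, of which 20 had 2 or more members. Family names (S for the small and L for the large subunit) follow the standard nomenclature of plant ribosomal proteins, while symbols come from a RefSeq gene table that names 13 of the 60 and gives no family.

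The cytosolic ribosome is built from ribosomal RNA and proteins: the small subunit reads the messenger RNA, and the large subunit joins amino acids and holds the exit tunnel. Plants keep several gene copies (paralogs) for most ribosomal proteins, so a ribosome can be made from different copies. Growing tissue needs new ribosomes, the kinase TOR promotes their production, and mutants of single ribosomal protein genes in Arabidopsis are known for pointed leaves and embryo defects.

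The samples were 26 microarrays in 10 groups of seedling root material. Cells carrying pSCR::GFP, a reporter driven by the SCARECROW (SCR) promoter of endodermis and quiescent centre (QC), were sorted from root tips cut at 250 µm. These plants were 2 days old after germination when 1 µM of the synthetic auxin 2,4-D was applied, and cells were taken at 0 h without auxin (3 arrays, replicates 1, 3 and 5) and after 24, 48, 72 and 96 h (2 arrays each, replicates 2 and 3). For QC cells, a reporter under the WOX5 promoter was used in roots 3 days after germination, with 3 arrays each of a separate harvest of wild type, of wild type Col-0 plants grown with the mutant, and of jkd-4 plants. Meristems of wild type and of jkd plants, also at 3 days, gave 3 arrays each. The jkd mutation affects JACKDAW, which codes for a transcription factor with zinc fingers that acts in cortex and endodermis. Descriptions of the jkd arrays disagree with their titles, so genotypes were taken from titles and source names. The labels name no untreated arrays after 0 h, so the effect of 2,4-D cannot be told apart from that of age and time in culture. The labels leave unsaid whether replicate arrays are of separately grown plants, so p-values measure only the spread between arrays, which may be technical.

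Signals are MAS5 intensities, analysed as log2(signal + 16), and differences are in log2 units with a standard error (±). A gene passed when limma gave a Benjamini-Hochberg adjusted p under 0.05 over the 11469 probe sets tested. All 57 genes were strong enough to be tested in every comparison, and 55 to 57 of them lay above the median signal on each array. Levels of different probe sets are not comparable, so only changes were set beside each other. Sums of signals over marker genes, given below, mostly follow the strongest probe sets and do not stand for every gene summed. In a bulk sample, a lower signal from fewer cells of a type cannot be told apart from less RNA per cell.

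In several groups, most of the 57 genes differed in 1 direction between arrays. Their median reached 11.34 and 11.05 on replicates 1 and 3 at 0 h but 11.98 on replicate 5, which gave the highest of the 3 values for 53 of the 57 genes, against 46.7% of all probe sets tested. At 24 h, replicate 3 (median 11.82) lay above replicate 2 (10.99) for 57 of 57 genes, against 51.7% of all probe sets. Among QC arrays grown with jkd, replicate 2 was highest for 52 genes (91.2% against 40.6% of all probe sets). In the wild type meristem replicate 2 was lowest for 51 (89.5% against 25.5%). In the jkd meristem replicate 2 was highest for 45 (78.9% against 29.3%), and in the jkd QC replicate 3 for 40 (70.2% against 33.2%). Replicate 3 was also higher for 41 genes at 48 h (71.9% against 50.4%) and 40 at 72 h (70.2% against 54.9%). The 96 h group and the separate QC harvest showed less of this. At 96 h, replicate 3 was higher for 30 genes and replicate 2 for 27 (52.6% and 47.4% against 51.7% and 48.4% of all probe sets). In the separate QC harvest the 3 arrays were highest for 16, 12 and 29 genes (28.1%, 21.1% and 50.9% against 30.7%, 34.8% and 34.6%). Transcripts of the plastid genome differed along with them at 0 h, with a mean of 10.01 on replicate 5 against 7.08 and 7.67. Their part in the spread was not tested. The median SD of a gene at 0 h was 0.49 as measured and 0.29 after each array was centred on the median of the 57 genes, and the separate QC harvest was the tightest group of 3, with 0.14 (SD, n = 3). Counts and medians against 0 h are therefore given with and without its replicate 5. Shares of all probe sets are of the fits with all arrays, and are not given for the fits without replicate 5. The 46 differences from 0 h among the 6 largest rises and falls of each time all kept their call without it, with shifts between -0.06 and 0.51.

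**Figure D1:**
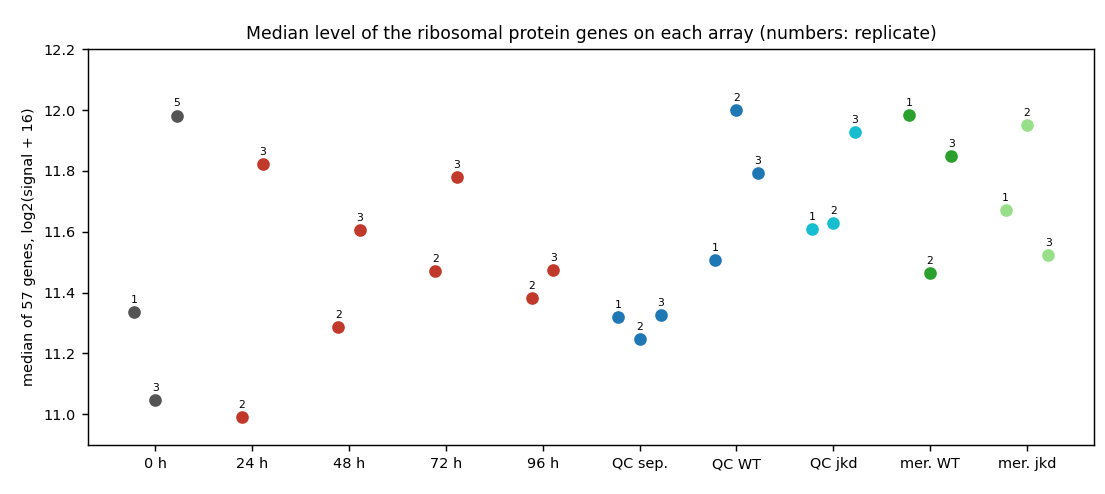
Median of the 57 ribosomal protein genes, log2(signal + 16), on each of the 26 arrays by group (x axis), with replicate numbers beside the points. Replicate 5 at 0 h (11.98) and replicate 3 at 24 h (11.82) stand above the other arrays of their groups, while the 3 arrays of the separate QC harvest lie close together.

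The first comparison asks how these genes changed in SCR-marked cells on 2,4-D, a treatment under which the series title describes endodermis turning into QC. At 24 h, 11 of the 57 genes rose and 11 fell, so 38.6% passed where 48.1% of all probe sets did (higher 20.7%, lower 27.5%). At 48 h, 4 rose and 10 fell (24.6% against 49% of all probe sets, higher 21.8%, lower 27.2%). At 72 h 8 rose and 7 fell (26.3% against 49.3%, higher 23%, lower 26.4%), and at 96 h 7 rose and 13 fell (35.1% against 52.4%, higher 24.7%, lower 27.7%). The share that passed was thus below the share among all probe sets at each time. Median differences of the 57 genes were -0.31, -0.35, -0.05 and -0.25 from 24 to 96 h, against -0.21, -0.16, -0.09 and -0.11 for all probe sets tested. These 4 comparisons share the 0 h arrays. Without replicate 5 at 0 h, the counts were 16 up and 10 down at 24 h, 11 and 10 at 48 h, 16 and 7 at 72 h, and 12 and 9 at 96 h, and the falls shared with the full set of arrays were 10 of 11, 10 of 10, 7 of 7 and 9 of 13. The medians turned to 0.10, 0.03, 0.23 and 0.02 without replicate 5, so their direction rested on that array. At 24 h the direction also rested on replicate 2 of 24 h, without which the median was 0.175. Without replicate 1 or replicate 3 at 0 h, 7 rose at 24 h, and 4 and 3 rose at 96 h. Without an array of 96 h, 3 rose at 96 h, and 5 fell without replicate 2 and 9 without replicate 3. Leaving out any array of 24, 48 or 72 h gave 4 rises and 13 falls at 96 h. The 24 h count also turned on its 2 arrays: 2 rose and 14 fell without replicate 3, 10 rose and 6 fell without replicate 2. At 72 h, 5 rose and 4 fell without its replicate 2, and at 48 h 6 fell without its replicate 3.

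Split by subunit, with all arrays in, the 40S falls and the 60S rises were near the shares of all probe sets, except for fewer 60S rises at 48 h. Rises among 40S genes and falls among 60S genes were below those shares. Of the 28 genes of the 40S subunit, 4 rose and 9 fell at 24 h, 0 and 9 at 48 h, 1 and 7 at 72 h, and 0 and 10 at 96 h, with medians of -0.56, -0.65, -0.36 and -0.45. Of the 29 genes of the 60S subunit, 7 rose and 2 fell at 24 h, 4 and 1 at 48 h, 7 and 0 at 72 h, and 7 and 3 at 96 h, with medians of 0.14, 0.13, 0.27 and 0.10. The 40S falls came to 32.1, 32.1, 25.0 and 35.7% against 27.5, 27.2, 26.4 and 27.7% of all probe sets, and the 40S rises to 14.3, 0.0, 3.6 and 0.0% against 20.7, 21.8, 23 and 24.7%. The 60S rises came to 24.1, 13.8, 24.1 and 24.1%, and the 60S falls to 6.9, 3.4, 0.0 and 10.3%. Without replicate 5 at 0 h, the 40S counts were 5 and 9, 2 and 9, 4 and 7, and 2 and 7, and the 60S counts 11 and 1, 9 and 1, 12 and 0, and 10 and 2. The 60S rises were thus more at each time than with all arrays. Whether the share of all probe sets moved as well is not given here. The medians were then -0.31, -0.35, -0.07 and -0.14 for the 40S and 0.39, 0.28, 0.48 and 0.26 for the 60S subunit. The contrast between subunits was described and not tested. In all, 30 of the 57 genes (52.6%) did not pass at any time, against 33.6% of all probe sets.

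**Figure D2:**
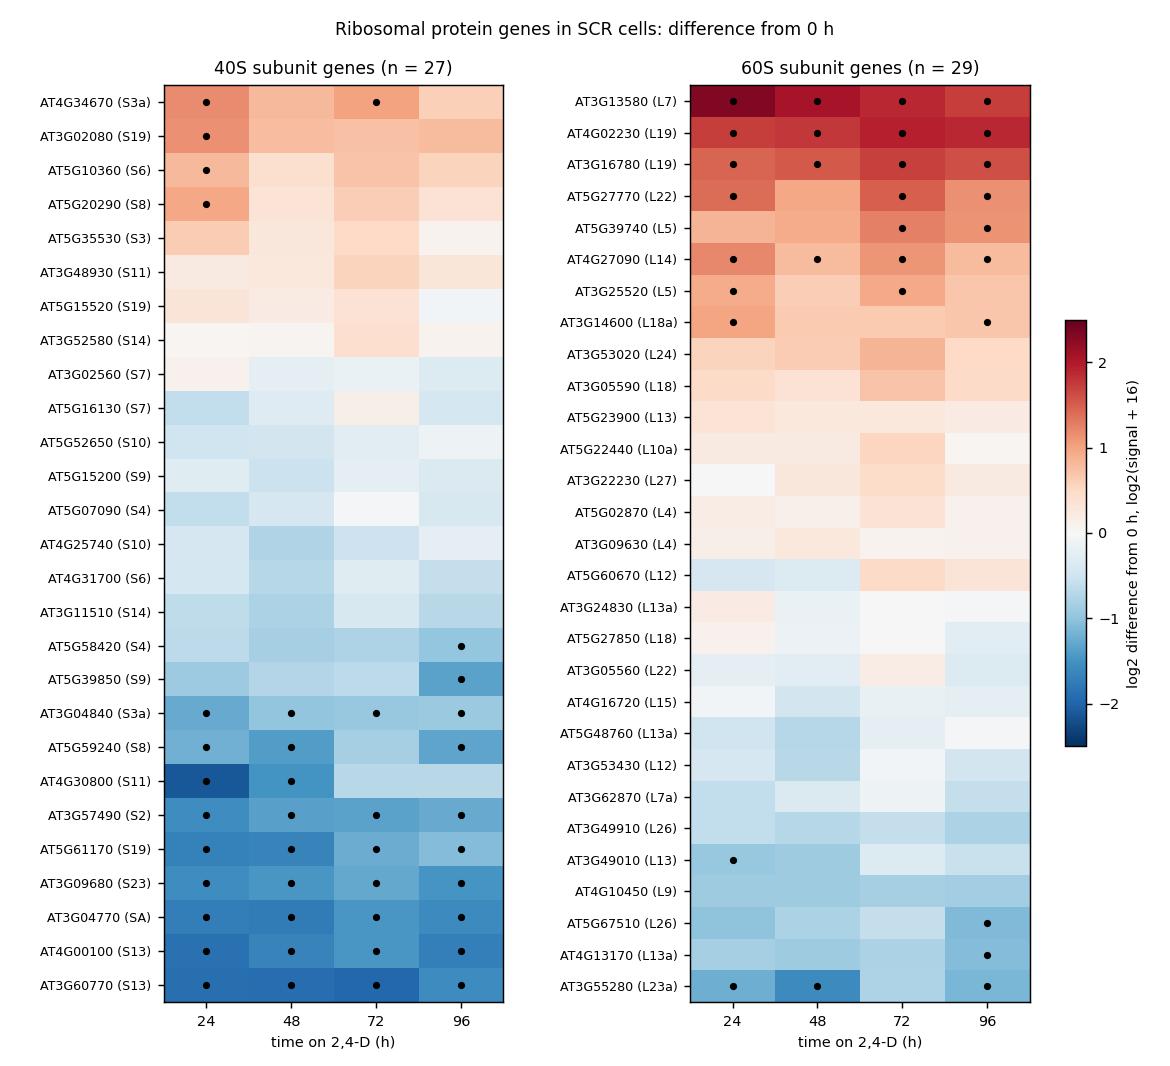
Difference from 0 h in log2 units (colour) for 27 genes of the 40S (1 is not drawn) and the 29 of the 60S subunit at 24, 48, 72 and 96 h on 2,4-D, with black dots where a gene passed. The 40S panel holds 9, 9, 7 and 10 falls (25.0 to 35.7%, where 26.4 to 27.7% of all probe sets fell) and the 60S panel 7, 4, 7 and 7 rises (13.8 to 24.1%, where 20.7 to 24.7% of all probe sets rose).

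In the 40S subunit, both S13 genes fell at each time. Signals of RPS13A (AT4G00100, whose loss gives the pointed first leaf mutant) were 4012, 3368 and 4822 at 0 h, 912 and 1307 at 24 h, 1185 and 1308 at 48 h, 1392 and 1515 at 72 h and 1388 and 1069 at 96 h. The other S13 gene, AT3G60770, went from 2967, 2734 and 4427 at 0 h to 784 and 992 at 24 h and 1194 and 1009.9 at 96 h. Every treated array lay below every 0 h array for both. Differences from 0 h were -1.87 ± 0.29 and -1.89 ± 0.30 at 24 h (limma adjusted p = 0.000201 and 0.000212), and -1.71 ± 0.29 and -1.57 ± 0.30 at 96 h (adjusted p = 0.000305 and 0.000657).

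RPSAb (AT3G04770), a homologue of the laminin receptor precursor and part of the small subunit, gave 393, 359 and 465 at 0 h and 110.0 and 110.3 at 24 h. It stayed low at 89.0 and 134 at 48 h, 188 and 98.9 at 72 h and 106 and 143 at 96 h, again without overlap. Its difference was -1.73 ± 0.33 at 24 h (limma adjusted p = 0.000845) and -1.59 ± 0.33 at 96 h. The S23 gene AT3G09680, whose protein sits at the decoding centre, went from 8816, 6712 and 9464 to 1961 and 4048 at 24 h and 2651 and 3314 at 96 h (-1.54 ± 0.34 and -1.47 ± 0.34). It is the only one of the 57 whose probe set name ends in a mark of possible cross-hybridisation. The S2 gene AT3G57490 fell from 413, 484 and 583 to 133 and 182 at 24 h (-1.55 ± 0.35) and stood at 151 and 249 at 96 h (-1.26 ± 0.35). S2 lines the path of the messenger RNA.

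Other falls in the 40S subunit involved single copies of families that have more. The S11 gene AT4G30800 showed the largest fall of the 57 at 24 h, -2.11 ± 0.42 (limma adjusted p = 0.00108), from 485, 749 and 574 to 61.6 and 239.8, and then 340.3 and 381 at 96 h, a difference of -0.70 ± 0.42 that did not pass (adjusted p = 0.175). The S19 gene AT5G61170 fell from 1171, 1851 and 3561 to 538 and 667 at 24 h (-1.70 ± 0.39), and was 853 and 1004 at 96 h (-1.08 ± 0.39). The S8 gene AT5G59240 dropped from 177, 144 and 241 to 55.5 and 89.6 (-1.20 ± 0.37 at 24 h, -1.33 ± 0.37 at 96 h). At 96 h the S9 gene AT5G39850 also fell (-1.34 ± 0.41), with signals of 27.7 and 38.5 against 70.2, 121 and 145 at 0 h. Quantile normalization gave this gene -0.95 without a call.

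Most genes that rose belong to the 60S subunit. The L7 gene AT3G13580 gave 787, 873 and 733 at 0 h, 3952 and 4082 at 24 h, 3459.5 and 3288 at 48 h, 3946 and 2241 at 72 h and 3397 and 2077 at 96 h. Its rise of 2.31 ± 0.32 at 24 h was the largest among the 57 (limma adjusted p = 7.47e-05), and the difference was 1.72 ± 0.32 at 96 h (adjusted p = 0.000558). The highest array at 0 h was at 873 and the lowest treated array at 2077. Replicate 5, which was high for most of the 57 genes at 0 h, was the lowest of the 3 for this one.

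Both L19 genes, which code for a protein in contact with ribosomal RNA at the bridge between subunits, rose. AT4G02230 went from 815, 939.5 and 1956 to 2718 and 5473 at 24 h and 3673 and 5008 at 96 h (1.74 ± 0.41 and 1.89 ± 0.41, limma adjusted p = 0.00337 and 0.00168). AT3G16780 went from 649.8, 931 and 1546 to 2171 and 3393 and 2798 and 3263 (1.46 ± 0.36 and 1.61 ± 0.36). All 8 treated arrays lay above the 3 arrays at 0 h for both. The L14 gene AT4G27090 rose from 5418, 4892 and 8100.4 to 13065 and 14640.3 at 24 h (1.21 ± 0.30) and was 11419.5 and 9378 at 96 h (0.79 ± 0.30). The L22 gene AT5G27770 rose from 1589, 1567 and 3826 to 4304 and 7261 at 24 h (1.39 ± 0.39), gave 0.96 ± 0.39 at 48 h without passing (adjusted p = 0.0539), and passed at 72 h (1.49 ± 0.39) and 96 h (1.13 ± 0.39).

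L5 carries the 5S ribosomal RNA into the large subunit. ATL5 (AT3G25520) gave 2153, 2121 and 4352 at 0 h and 5397 and 5129 at 72 h, a rise of 0.95 ± 0.34, and it also passed at 24 h (0.92 ± 0.34). RPL5B (AT5G39740) gave 967, 1423 and 3413 at 0 h and 4033 and 4086 at 72 h, a rise of 1.27 ± 0.45, and passed at 96 h (1.11 ± 0.45). For both L5 genes, replicate 5 at 0 h was far above the other 2 arrays of its group and reached into the treated range. Fewer 60S genes fell. RPL23AB (AT3G55280), whose family sits at the exit of the tunnel, fell from 1493, 1237 and 3204 to 610.0 and 577 at 48 h (-1.58 ± 0.38, limma adjusted p = 0.0038) and also passed at 24 h and 96 h. The L13 gene BBC1 (AT3G49010) fell at 24 h (-0.95 ± 0.36).

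**Figure D3:**
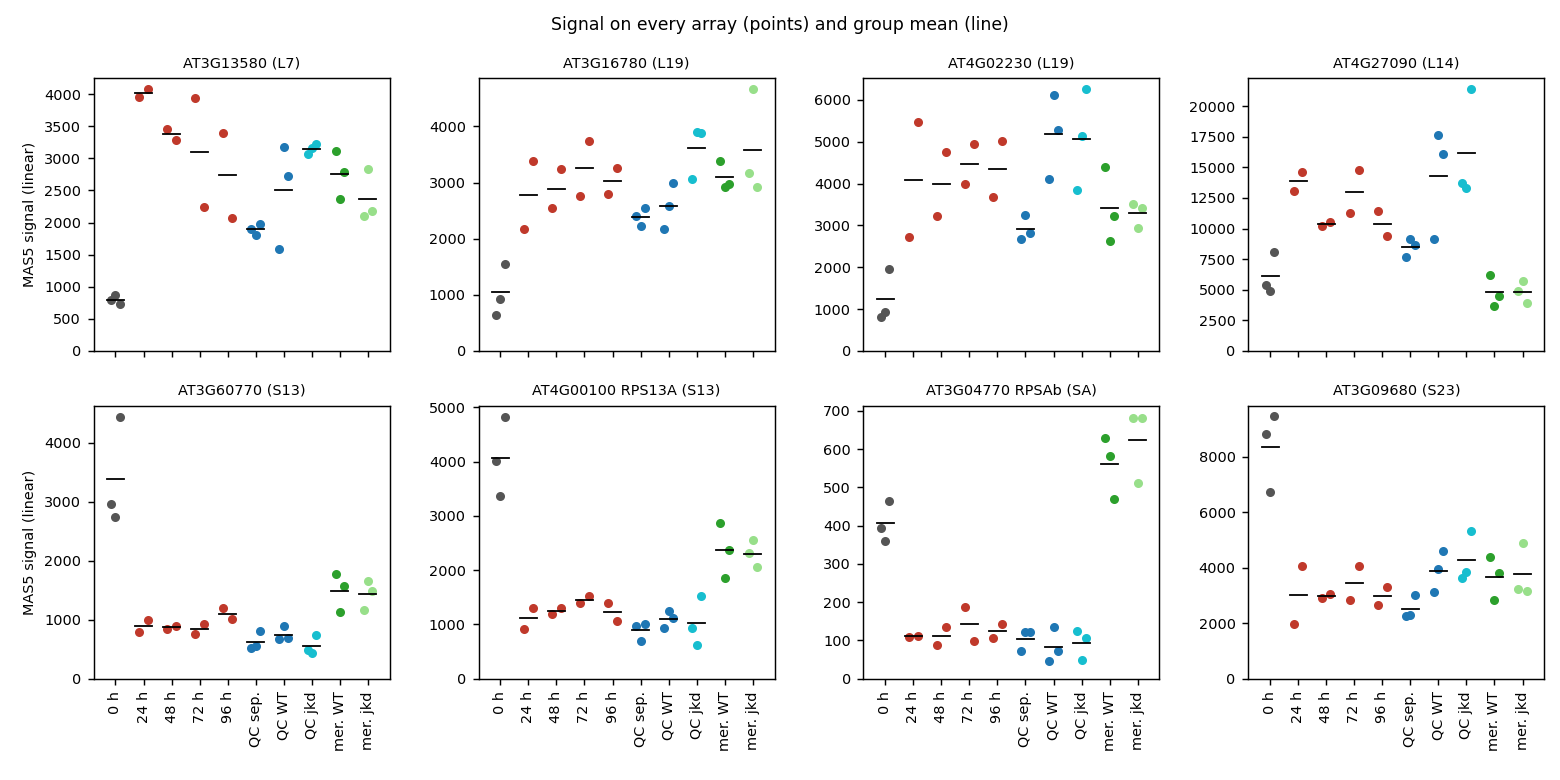
MAS5 signal (linear y axis from 0) of 8 ribosomal protein genes on every array (points) and the group mean (line), for the 10 groups along the x axis (sep., separate harvest; mer., meristem). The L7, L19 and L14 genes in the upper row lie higher in all 8 treated arrays than at 0 h, and the S13, SA and S23 genes in the lower row lie lower.

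Over all treated times together, 7 genes had each of the 8 treated arrays above each of the 3 at 0 h (12.3% of the 57, against 20.7% of all probe sets) and 11 had each below (19.3% against 26.9%). Both shares were under those of all probe sets. The 7 were 1 gene of the 40S subunit, EMB3010 (AT5G10360), and 6 of the 60S. From 24 h to 96 h, 0 of 57 genes passed in limma, with 1 at an unadjusted p under 0.05, while 3.86% of all probe sets passed (higher 1.97%, lower 1.89%). The smallest adjusted p was 0.111, for AT4G30800, which was 1.42 ± 0.46 higher at 96 h. Half-widths of the 95% intervals had a median of 0.84, and for 18 genes the interval lay within 1 log2 unit of 0, so changes under that size could not be seen for most.

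Copies of some families differed in direction. At 24 h, 3 families had a copy that rose and one that fell: S3a, S8 and S19. In S3a, AT4G34670 gave 3088, 3382 and 6191 at 0 h and 7730.3 and 10699.6 at 24 h (1.18 ± 0.33), while AT3G04840 gave 3815, 3373 and 6244 and 1568 and 2033 (-1.27 ± 0.32); the pair also parted at 72 h (1.01 ± 0.33 and -0.95 ± 0.32). In S19, AT3G02080 rose from 3249, 2324 and 6195 to 6351 and 9979.7 (1.14 ± 0.38) as AT5G61170 fell. In S8, AT5G20290 went from 9193, 7823 and 15045 to 18446 and 21708 (0.96 ± 0.32, or 0.47 without a call after quantile normalization) as AT5G59240 fell.

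A pair measured on the same arrays can be compared within each array, which removes the shift common to an array. The log2 difference between 2 copies was computed per array and set between 8 treated and 3 arrays at 0 h with a two-sided exact permutation test over 165 regroupings (smallest possible p 0.00606). Of 26 pairs in 20 families, 13 pairs in 11 families changed at a Benjamini-Hochberg adjusted p under 0.05 over the 26 pairs, and 12 of these had no overlap between treated and 0 h arrays. These treated arrays pool 4 times. Between 48.1% and 52.4% of all probe sets passed against 0 h at single times, and how often pairs of other genes part was not computed. For S3a, the mean change of AT3G04840 minus AT4G34670 was -1.93, with no overlap between treated and 0 h arrays (exact permutation p = 0.00606, adjusted 0.0143). For S19, AT3G02080 minus AT5G61170 changed by 2.28, and for S8, AT5G20290 minus AT5G59240 by 1.76, both at the same adjusted p.

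Among the other families, RPS6 (AT4G31700) and EMB3010 (AT5G10360) encode S6, the substrate of S6 kinase. RPS6 minus EMB3010 changed by -1.13, again with no overlap (exact permutation, adjusted p = 0.0143). Of the S11 copies, EMB1080 (AT3G48930) gained 1.59 on AT4G30800. In L22, AT5G27770 gained 1.40 on AT3G05560, in L13 AT5G23900 gained 0.96 on BBC1, in L13a AT3G24830 gained 0.91 on AT4G13170, and in S14 AT3G52580 gained 0.79 on AT3G11510 (adjusted p = 0.0263). Smaller shifts were 0.58 in L18 and 0.26 in L19, the latter with overlap (adjusted p = 0.0485). For the S13 copies, which both fell, the change in their difference was -0.15 and did not pass (exact permutation p = 0.394). With 1 array at 0 h left out, only 45 regroupings remain and the smallest possible p is 0.0222. Then 12 pairs passed without replicate 1 and 0 without replicate 3 or without replicate 5.

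**Figure D4:**
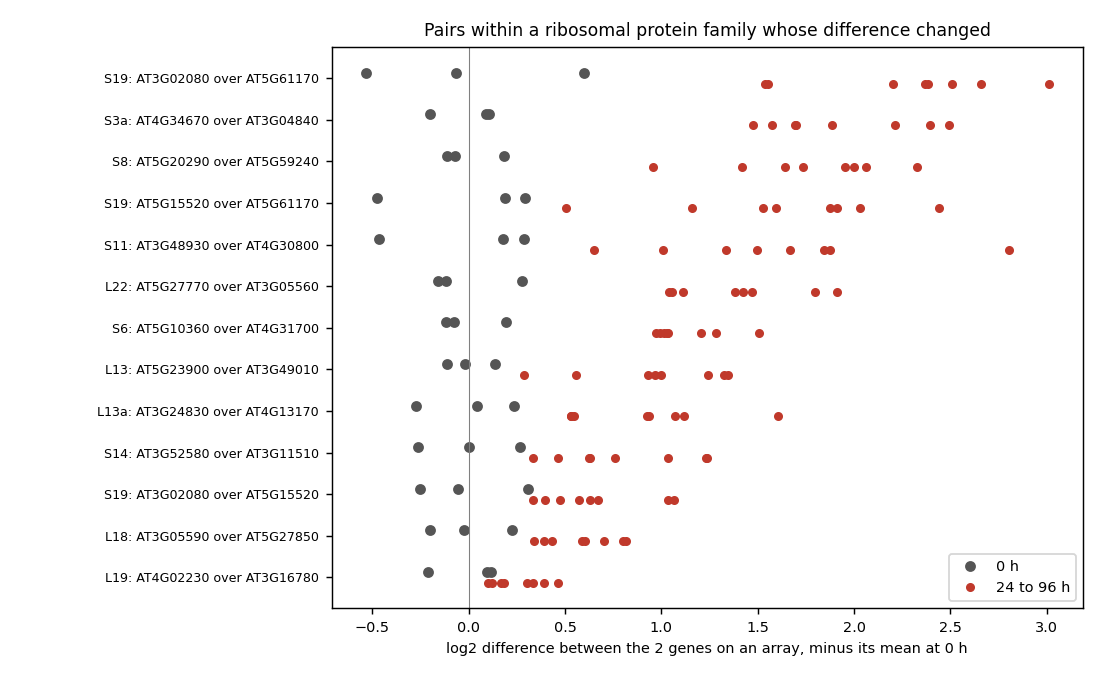
Log2 difference between 2 copies of a family on each array, minus its mean at 0 h, for the 13 pairs that passed the exact permutation test (grey, 3 arrays at 0 h; red, 8 arrays at 24 to 96 h). Each label names the copy that gained over the other. In every pair but L19 the red points lie right of all grey points, by the most in S19 and S3a.

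The QC is the destination that the series title names, so SCR-marked cells were set beside the separate QC harvest. At 0 h, 14 genes were higher than in the QC and 5 lower (33.3% passed, against 51.3% of all probe sets, higher 25.5% and lower 25.7%). The largest on the higher side were the S13 genes (2.18 ± 0.24 for RPS13A and 2.40 ± 0.25 for AT3G60770), RPSAb (1.83 ± 0.29) and the S23 gene AT3G09680 (1.71 ± 0.28). On the lower side they were AT4G02230 (-1.33 ± 0.33), AT3G16780 (-1.27 ± 0.29) and AT3G13580 (-1.23 ± 0.25). The 0 h arrays are those used for the changes over time, so finding the same genes here is not independent of those changes. Signals of RPS13A in the QC were 976, 692 and 999, below every array at 0 h. At 24 h 8 genes were higher and 3 lower (19.3% against 31.7%, higher 12.3% and lower 19.3%), and at 96 h 2 were higher and 1 lower (5.3% against 30.3%, higher 13.8% and lower 16.5%). The 3 at 96 h were AT3G09630 (L4, 0.87 ± 0.25), AT3G60770 (0.83 ± 0.28) and AT5G59240 (-1.68 ± 0.34). At 24 h the highest was AT4G34670 (1.10 ± 0.29) and the lowest AT4G30800 (-1.68 ± 0.39). Without replicate 5 at 0 h, 11 genes were higher and 12 lower at 0 h than in the QC, with a median of -0.04. At 24 h the counts were 1 and 6 without its replicate 3, and 3 and 2 without QC replicate 1 or without QC replicate 2. At 96 h, 0 genes were higher without its replicate 2 or without QC replicate 2. Under quantile normalization the 24 h counts were 1 and 7. These comparisons share the QC arrays, and the medians over the 57 genes were 0.19 at 0 h, 0.20 at 24 h and 0.18 at 96 h.

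The second question is how the QC, whose cells divide rarely, differs from the meristem around it. In the separate QC harvest, 4 genes were higher and 32 lower than in the wild type meristem, so 63.2% passed against 58.3% of all probe sets (higher 27%). The share that was lower, 56.1%, stood beside 31.3% of all probe sets, and the median was -0.53 against -0.08. In the QC grown with jkd, set against the same meristem arrays, 9 were higher and 11 lower (35.1% against 49.6%, higher 21.8% and lower 27.8%), with a median of -0.03. Quantile normalization gave 2 higher and 47 lower for the separate harvest (median -0.695). For the QC grown with jkd it gave 1 higher and 27 lower (median -0.577), so the level median of this QC rested on the scaling. Of all 11469 probe sets it then gave 2959 higher and 3626 lower for the separate harvest, and 2397 and 2992 for the other. The 2 wild type QC harvests were compared directly: 23 genes were lower in the separate harvest and 0 higher (40.4% against 23.1%, higher 13% and lower 10.1%), with a median of -0.49. With quantile normalization that count was 7 lower and 1 higher, and leaving out replicate 1, 2 or 3 of the separate harvest gave 9, 8 or 12 lower. What sets the harvests apart cannot be told apart from the batch they were grown and processed in.

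In the 40S subunit, 20 of 28 genes were lower in the separate QC harvest and 2 higher, and in the 60S subunit 12 of 29 were lower and 2 higher. RPSAb stood out in both: signals were 71.5, 122 and 121 in the separate QC, 45.1, 134 and 72.1 in the QC grown with jkd and 629, 582 and 471 in the wild type meristem. It was -2.28 ± 0.22 in the separate harvest (limma adjusted p = 9.36e-07) and -2.62 ± 0.33 in the other (0.000186). Every QC array lay below every meristem array. AT5G67510 (L26) was -1.48 ± 0.25 and -1.17 ± 0.30, RPS13A -1.39 ± 0.19 and -1.08 ± 0.23. The S11 gene AT4G30800 was 530.2, 348 and 446 in the separate QC and 1069, 1034 and 1141 in the meristem.

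A few genes ran the other way. The L14 gene AT4G27090 gave 7673, 9164 and 8631 in the separate QC, 9136, 17617 and 16106 in the QC grown with jkd and 6211, 3673 and 4528 in the meristem, 0.85 ± 0.20 and 1.55 ± 0.29 higher. The S8 gene AT5G20290 was 0.68 ± 0.20 and 1.37 ± 0.27 higher, but -0.11 and -0.26 under quantile normalization, and RPS6 0.49 ± 0.17 and 0.85 ± 0.21 higher but 0.17 and 0.07 there, without a call. Over the 9 QC and 6 meristem arrays of both genotypes, 4 genes (AT5G20290, RPS6, AT4G27090 and AT3G24830) lay above on every QC array (7.02% against 11.8% of all probe sets) and 9 below (15.8% against 15.4%). In S8, AT5G59240 was -1.05 ± 0.19 in the separate harvest while AT5G20290 was higher, and in L18, RPL18 (AT3G05590) was 0.42 ± 0.17 while AT5G27850 was -0.49 ± 0.19. In L13a, AT3G24830 was 1.20 ± 0.24 in the QC grown with jkd as AT5G48760 was -0.65 ± 0.24 and AT4G13170 -0.63 ± 0.22. After quantile normalization these copies were at 0.23, -0.58 and -0.55, all without a call.

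**Figure D5:**
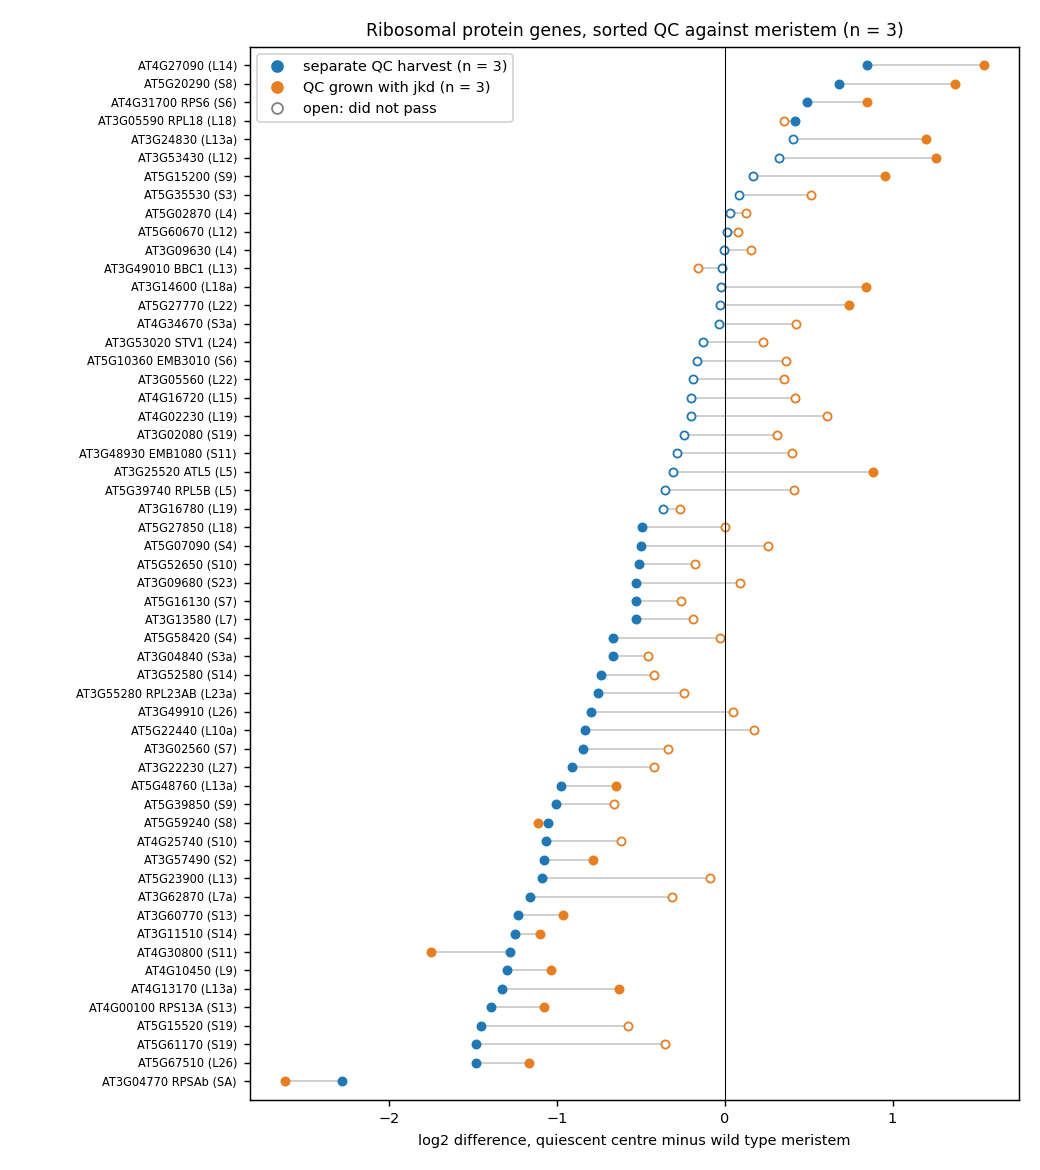
Log2 difference between sorted QC and wild type meristem (x axis) for 56 of the 57 ribosomal protein genes (vertical axis, ordered by the separate harvest), blue for the separate QC harvest and orange for the QC grown with jkd, filled where a gene passed. Blue points lie left of orange for 51 genes, and RPSAb is lowest in both.

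No ribosomal protein gene passed between jkd and wild type. In the QC, 0 of 57 passed (limma, 0 at an unadjusted p under 0.05; 0.105% of all probe sets passed, higher 0.0872% and lower 0.0174%). In the meristem, 0 of 57 passed (0 at an unadjusted p under 0.05; 0.933% of all probe sets, higher 0.776% and lower 0.157%), and 0 passed for the difference of the effect between tissues (0% of all probe sets; 0 at an unadjusted p under 0.05). Differences in the meristem ran from -0.22 to 0.45, with 95% intervals of a median half-width of 0.45 that stayed within 1 log2 unit of 0 for all 57 genes. In the QC they ran from -0.72 to 0.78 with a median half-width of 0.57, and 45 of 57 intervals stayed within 1 log2 unit. Smaller changes could not be resolved with 3 arrays.

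Other parts of the translation machinery were read from lists of related genes. Of 66 other cytosolic ribosomal protein genes tested, 6 rose and 13 fell at 24 h (median -0.26), which is 9.1% and 19.7% against 20.7% and 27.5% of all probe sets. Without replicate 5 at 0 h, 12 rose and 13 fell (median -0.07). Against the meristem, 37 were lower and 6 higher in the separate QC (median -0.53). That is 56.1% and 9.1%, against 31.3% and 27% of all probe sets. In the QC grown with jkd, 12 were lower and 21 higher (median -0.01), or 18.2% and 31.8% against 27.8% and 21.8%. The acidic P proteins of the stalk that recruits elongation factors fell in 4 of 9 at 24 h (median -1.05) and 0 rose. That is 44.4% lower, against 27.5% of all probe sets. The falls were led by AT3G28500 (-2.38 ± 0.40) and AT3G11250 (-1.90 ± 0.31). Among ribosome assembly factors, 11 of 30 rose and 3 fell at 24 h (median 0.52; 36.7% rose), and 13 rose and 3 fell at 96 h (median 0.81). EDA25 (AT1G72440) rose by 3.26 log2 units at 24 h and 3.37 at 96 h (limma adjusted p = 1.12e-05 and 5.92e-06), and the RNA helicase PRH75 by 3.18 and 2.60. FIB1, the fibrillarin that methylates ribosomal RNA, rose by 1.40 at 24 h (0.00245), while FIB2 was at -1.17 ± 0.47 (0.0556) and nucleolin NUC-L1 at 0.20 ± 0.36. Translation factors gave 4 rises and 2 falls among 16 at 24 h (25.0% and 12.5%, against 20.7% and 27.5% of all probe sets). Without replicate 5 at 0 h, the 24 h counts were 0 and 4 for the P proteins, 11 and 3 for assembly factors and 4 and 1 for translation factors.

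TOR itself, the kinase that promotes ribosome production, rose by 1.97 ± 0.34 at 24 h (limma adjusted p = 0.00045) and 1.97 ± 0.34 at 96 h. TCP20, a transcription factor known to bind promoters of ribosomal protein genes, fell, with -1.88 ± 0.41 at 24 h (adjusted p = 0.00207) and -1.26 ± 0.41 at 96 h. The S6 kinases S6K1 (listed as PK1; -0.11 ± 0.34) and S6K2 (0.73 ± 0.44) and EBP1 (listed as ATG2; 0.15 ± 0.33) did not pass at 24 h. In the list of 7 tested, 1 rose and 1 fell at 24 h (14.3% each, against 20.7% and 27.5% of all probe sets). Without replicate 5 at 0 h, TOR was at 2.10 and TCP20 at -1.79 at 24 h (limma adjusted p = 0.000145 and 0.00377).

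Markers of other cells moved alongside. Summed signals of 6 Casparian strip genes, which mark endodermis, fell from between 13892 and 24088 at 0 h to between 451.6 and 566 at 96 h. At 24 h 4 of 6 were down (66.7% against 27.5% of all probe sets). Genes of dividing cells gave 972 to 1279.8 (sum of 6) at 0 h, 283.6 to 403 at 24 h and 1343.8 to 1508.7 at 96 h. At 24 h 5 of 6 were lower (83.3% against 27.5%). Transcripts of the plastid genome rose in 34 of 80 and mitochondrial ones in 25 of 58 at 24 h (42.5% and 43.1% against 20.7%). Without replicate 5 at 0 h, 64 and 41 rose. The summed signal of QC and niche markers rose from between 1062.7 and 1241.1 at 0 h to between 4521 and 6744 at 96 h. Of the 8 tested, 2 rose at 24 h (median 0.75) and 5 at 96 h (median 2.13), and 0 fell at either time. That is 25.0% and 62.5%, against 20.7% and 24.7% of all probe sets. In the QC arrays the 6 genes of dividing cells were lower than in the meristem (5 of 6 passed in the separate harvest, 83.3% against 31.3% of all probe sets). In the separate QC, set against the meristem, 70 of 78 plastid transcripts (median 1.92) and 47 of 53 mitochondrial ones (median 2.21) were higher, as were 5 of 6 Casparian strip genes. That is 89.7%, 88.7% and 83.3%, against 27% of all probe sets. In the QC grown with jkd these counts were 73 of 78, 53 of 58 and 3 of 6, and 6 of 6 genes of dividing cells were lower. The summed signal of 3 epidermis genes was 184.6 to 523.4 at 0 h and 18.7 to 25.1 at 96 h, and both that were tested fell at each time (medians from -1.76 at 24 h to -2.68 at 96 h). For 4 root cap genes the sum was 212.0 to 544.5 at 0 h and 355.7 to 389.9 at 96 h, with 1 fall at 24 h (25.0% against 27.5%) and no call later. The part of these markers and transcripts in the differences of the ribosomal protein genes was not tested.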

How the data were processed

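Per the labels' protocols, RNA of sorted protoplasts was amplified before biotin labelling. Each array was deposited as a column of linear intensity values, which the submitters' processing notes credit to MAS5. Its version, the array type and the genome build were not given in the sources used here. Precision is limited by the 2 or 3 arrays in a group.

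Intensities were analysed as log2(signal + 16), which understates changes of weak genes, with no further normalization. Probe sets below the 30th percentile of mean signal were dropped, which left 11469 in each fit. The tests were moderated linear models of limma 3.58.1 under R 4.3.3, with a trended and robust eBayes step, and were tested on simulated data. Exact permutation tests used scipy 1.17.1, and figures matplotlib 3.10.9 in Python 3.11.15. The 11 SCR arrays shared a fit, to which the separate QC arrays were added when the QC was the reference, and other contrasts used their own arrays. The named genes were the 6 largest rises and 6 largest falls that passed per comparison, families split in direction, and the list genes with the 3 largest changes or named in the list of regulators. Further genes are named for their paralog pair, and 1 gene is counted but not reported here by name. The members and lists were chosen with earlier results of these data known. Replicate numbers showed no clear pairing of the arrays: deviations of same-numbered SCR arrays correlated between -0.142 and 0.177, and 4 of 16 pairs exceeded 0.1. In groups of 2 arrays the deviations mirror each other, so values between such groups repeat. The values above 0.1 were 0.177 and 0.122, each counted for both replicates. Alternatives were 2 other pseudocounts (1 and 64), no filter, quantile normalization, scaling to nuclear genes, plain eBayes, all 26 arrays in a fit, a replicate block, no cross-hybridising probe sets, and each array left out.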

Additional observations from a re-analysis of the deposited data

How the results depend on the processing

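Counts are given as genes higher and lower, and the cause of each change was not tested. With the replicate number as a block, which the data do not support as a pairing, 7 genes fell at 24 h, 14 rose and 6 fell at 48 h, 16 rose at 72 h, 14 rose and 5 fell at 96 h, and 1 was higher at 96 h than at 24 h. Under the block 15 were lower at 0 h than in the separate QC, 6 at 24 h and 4 at 96 h, where 3 were higher at 96 h, and other counts moved by less than 1.5 times. Medians against 0 h under the block were 0.36, 0.25, 0.43 and 0.25 from 24 to 96 h. Quantile normalization gave 9 rises at 48 h, 11 at 96 h, 8 lower at 0 h than in the separate QC, 1 higher and 7 lower at 24 h than in it, 2 higher in the separate QC than in the meristem, 1 higher and 27 lower in the QC grown with jkd than in the meristem, and 1 higher and 7 lower between QC harvests. Among the 6 largest rises and falls of each comparison, it reversed the sign of 4 values that had passed. They were AT5G20290 at -0.11 and -0.26 (separate and other QC against the meristem), and AT5G15200 at -0.32 and AT3G25520 at -0.22 in the QC grown with jkd. Outside those largest changes, AT5G27770 went from 0.74 to -0.17 in the QC grown with jkd. Between QC harvests, AT5G20290 went from -0.69 to 0.21 and AT3G05560 from -0.55 to 0.01. Over all probe sets it moved the share of calls that were higher at 24 h from 42.96% to 53.31%, and from 51.02% to 40.49% between 24 and 96 h, with the median at 24 h from -0.21 to 0.03. With all 26 arrays in a fit, 9 rose at 48 h, 5 were lower at 24 h than in the separate QC, 2 were higher in the separate QC than in the meristem, and 12 were lower between QC harvests. Plain eBayes gave 4 rises at 96 h and 8 lower between QC harvests. Of 870 values of single genes outside the left-out arrays, 833 kept their call and 33 lost it, and of those with 1 array left out 894 kept it and 102 lost it.

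Leaving out each array in turn gave ranges of 2 to 16 higher and 6 to 14 lower at 24 h, 3 to 11 and 6 to 15 at 48 h, 4 to 16 and 4 to 10 at 72 h, 3 to 12 and 5 to 15 at 96 h, and 0 to 1 higher between 96 and 24 h. Against the separate QC they were 11 to 16 and 3 to 12 at 0 h, 1 to 9 and 1 to 6 at 24 h, and 0 to 3 and 1 to 2 at 96 h. Against the meristem they were 1 to 6 and 27 to 40 for the separate QC and 7 to 10 and 7 to 15 for the other QC. Between QC harvests 8 to 30 were lower. From 0 to 12 paralog pairs passed, a range limited by the smallest p that 45 regroupings allow. Counts for jkd stayed at 0 in every alternative.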

Other observations

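Some genes in the nucleus encode ribosomal proteins of the plastid. Of 25 tested in the SCR cells, 5 rose and 7 fell at 24 h (median -0.10), and 8 rose and 3 fell at 96 h (median 0.51). In the separate QC harvest, 17 of 26 were lower than in the wild type meristem and 0 higher (median -0.83). That is 65.4% lower, against 31.3% of all probe sets (higher 27%). In the QC grown with jkd 6 were lower and 3 higher (median -0.35), or 23.1% and 11.5% against 27.8% and 21.8%. Markers of the stele rose in 3 of 4 genes at 24 h (median 1.25) and at 96 h (median 1.45). That is 75.0%, against 20.7% and 24.7% of all probe sets.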
